A study of Mus musculus with 21 samples.

Results

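The 39 genes described here encode the steps from glucose uptake to lactate export together with the oxygen-sensing factors and the targets they induce. They were chosen by symbol, as a list of glycolysis and hypoxia response genes, and all 39 were found among the 45706 genes of the table. The list holds genes of 1 function, drawn up when earlier results of these data were known. RNA was measured in cells carrying CD31, a surface protein of the endothelial cells that line blood vessels, sorted from E0771.lmb tumours, which grow from a mouse mammary carcinoma line.

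Tumours grew in adult wild-type mice (WT) and in Shb iECKO mice (KO). The KO animals carry floxed Shb alleles (Shb flox/flox) and the Cdh5-CreERt2 transgene, a tamoxifen-activated Cre recombinase driven by the endothelial Cdh5 promoter. Shb encodes an adaptor protein that binds activated tyrosine kinase receptors. Tamoxifen was injected before the tumours were grown, in both genotypes as far as the labels say, and tumours were taken on days 14 to 16. The labels do not state whether WT mice carried the Cre transgene or the floxed alleles. The cell isolation names CD45 beads ahead of the CD31 sort, and names a blood-cell Cre line to which no library was assigned. There were 11 WT libraries from 9 tumours and 10 KO libraries from 8 tumours, in 4 experiments with 3, 3, 2 and 3 WT and 2, 4, 2 and 2 KO libraries. A pair of KO columns share the header of replicate 3 of experiment 2 and are called KO replicates 3a and 3b, and 1 of them may belong to experiment 4. By number format and column position 3b is the likelier, though no label states it. The labels do not say which libraries share a tumour, and for that reason some of the spread behind a p-value may lie within a tumour.

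Glycolysis splits glucose into pyruvate in the cytosol, and lactate dehydrogenase turns pyruvate into lactate when it is not burned in mitochondria. Endothelial cells are known to draw much of their energy from this route, and the PFKFB3 enzyme is a known driver of vessel sprouting. When oxygen is low, the prolyl hydroxylases EGLN1 and EGLN3 stop marking the factors HIF1A and EPAS1 for destruction. The factors then pair with ARNT and bind a short DNA core, ACGTG or GCGTG, at genes for glucose uptake, glycolysis and mitochondrial clearance. Most of that control acts on the protein, so the RNA of HIF1A or EPAS1 does not report its activity.

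The start regions of the members are shown first because most of those matched hold the core through which the factors act. Windows from 250 bases before to 50 bases after a RefSeq start (GRCm38.p6) were given for 36 of the 39 members, and Bnip3l, Ndrg1 and Epas1 were not matched. A window with ACGTG on either strand was found for 25 of 36 members (69.4%), against 29.5% of the 9242 matched genes among those tested and 21.8% of all 27025 genes. GCGTG on either strand was found for 24 of 36 (66.7%), against 56.5% of the matched tested genes and 35.2% of all genes. At least 1 of both cores was present for 33 of 36 members (91.7%), against 68.0% and 46.7%. CACGTG, the E-box, contains ACGTG on both strands and was found for 6 of 36 members (16.7%), against 11.8% and 8.09%. The median window held 21 CG dinucleotides in members, 20 in matched tested genes and 7 in all genes. A gene may have more than 1 window. By window, ACGTG was present in 54.7% for members and 25.3% for matched tested genes, and GCGTG in 54.7% and 50.5%. These shares describe letters in a window and no binding was measured.

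The 4 members with the most core matches are printed 5' to 3' on the gene's strand, and capitals mark ACGTG or GCGTG read on either strand, so that CACGT and CACGC are their complements. They are Ldha (lactate dehydrogenase A, chr7:46845554-46845853, plus strand), Bnip3 (a mitophagy receptor, chr7:138909457-138909756, minus strand), Hk1 (hexokinase 1, chr10:62340372-62340671, minus strand) and Slc16a1 (the lactate transporter MCT1, chr3:104638414-104638713, plus strand). The Ldha and Hk1 windows lie inside the GENCODE gene bounds, which reach farther upstream.
Ldha: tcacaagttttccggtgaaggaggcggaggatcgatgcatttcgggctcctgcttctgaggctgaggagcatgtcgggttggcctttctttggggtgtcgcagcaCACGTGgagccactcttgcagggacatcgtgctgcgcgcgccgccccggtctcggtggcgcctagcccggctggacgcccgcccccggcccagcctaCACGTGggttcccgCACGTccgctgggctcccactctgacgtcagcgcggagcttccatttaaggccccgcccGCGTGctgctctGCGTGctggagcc
Bnip3: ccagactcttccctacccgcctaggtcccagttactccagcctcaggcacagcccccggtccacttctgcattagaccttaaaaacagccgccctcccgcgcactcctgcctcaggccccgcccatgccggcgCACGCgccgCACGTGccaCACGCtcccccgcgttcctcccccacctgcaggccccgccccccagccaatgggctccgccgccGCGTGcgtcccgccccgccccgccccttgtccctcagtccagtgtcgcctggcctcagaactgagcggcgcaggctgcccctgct
Hk1: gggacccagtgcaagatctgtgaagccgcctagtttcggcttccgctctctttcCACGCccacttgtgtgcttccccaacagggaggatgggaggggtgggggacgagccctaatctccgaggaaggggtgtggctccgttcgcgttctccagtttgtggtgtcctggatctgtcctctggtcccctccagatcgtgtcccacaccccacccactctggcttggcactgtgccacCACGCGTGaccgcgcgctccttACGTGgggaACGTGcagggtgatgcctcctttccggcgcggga
Slc16a1: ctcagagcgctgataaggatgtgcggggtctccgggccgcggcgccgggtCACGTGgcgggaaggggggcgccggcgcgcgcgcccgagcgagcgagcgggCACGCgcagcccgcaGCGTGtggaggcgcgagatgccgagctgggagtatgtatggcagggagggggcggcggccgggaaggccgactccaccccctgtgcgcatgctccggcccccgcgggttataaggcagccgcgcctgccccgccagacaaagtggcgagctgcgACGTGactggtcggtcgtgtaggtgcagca
Ldha had 5 ACGTG and 2 GCGTG matches, and each CACGTG counts on both strands. Bnip3 and Hk1 had 2 ACGTG and 3 GCGTG matches each. In Slc16a1 there were 3 ACGTG and 2 GCGTG matches.

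Libraries differed in composition. Genes above 0 TPM numbered 12178 to 20526 per library, and mitochondrial transcripts took 1.27% to 23.0% of the TPM. TPM corrects each gene's reads for its length and gives every library the same total, so levels of different genes can be set side by side but the number of reads behind them is unknown. All 18 endothelial markers were above 0 in all 21 libraries. The endothelial markers highest by mean were Egfl7, Plvap and Pecam1, which encodes CD31. Against a median of 1235 TPM, Pecam1 was low in WT replicate 2 and KO replicate 2 of experiment 4 (95.04 and 242 TPM) and in WT replicate 1 of experiment 2 (461 TPM). Shb ran from 17.2 to 74.3 TPM in WT (median 31.8) and from 6.00 to 52.7 TPM in KO (median 13.7). Its log2 difference, KO minus WT, was -0.91 (exact permutation p = 0.0223, two-sided), and it missed the threshold without the 3 libraries lowest in Pecam1 (exact p = 0.0748). It missed the threshold also with experiment 2 left out (exact p = 0.227), with experiment 4 left out (exact p = 0.165) and with KO replicates 3a and 3b dropped (exact p = 0.0688).

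Gapdh, the glyceraldehyde-3-phosphate dehydrogenase of lower glycolysis, was the most abundant member. In WT it ran from 971 to 3574 TPM with a median of 1331, and it exceeded the next member by median in 11 of 11 libraries. Epas1, which encodes the endothelial-rich factor HIF-2 alpha, came next with a median of 699 TPM and a range from 31.4 to 919 TPM. Pkm, pyruvate kinase, had a median of 683 TPM (439 to 1215), and Epas1 exceeded it in 4 of 11 libraries, so their order is not set. Aldoa, aldolase A, had a median of 474 TPM (288 to 898). Ldha had a median of 351 TPM (304 to 657), below Aldoa in 6 of 11 libraries and above Eno1, enolase 1, in 8 of 11. Eno1 had a median of 289 TPM (192 to 705).

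Below these, Hif1a, Pfkfb3, Gpi1, Ndrg1, Tpi1, Pfkp, Hk1, Bnip3l, Pgk1 and Pgam1 had WT medians of 203 down to 106 TPM. Hif1a exceeded Pfkfb3 in 6 of 11 libraries, and Bnip3l exceeded Pgk1 in 5 of 11. The next 10, from Ddit4 at 99.0 TPM through Slc2a1, Slc16a3, Adm, Pfkl, Pdk1, Ero1l, Egln1, P4ha1 and P4ha2, reached down to 29.3 TPM. Kdm3a, Bnip3, Ankrd37, Slc16a1, Pfkm, Mxi1 and Egln3 had medians from 25.7 to 9.62 TPM. Pfkfb4, Hk2, Eno2, Ldhb, Car9 and Aldoc had medians of 3.44, 2.26, 1.47, 1.25, 0.47 and 0.08 TPM, and each was listed at 0 in at least 1 WT library.

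**Figure D1:**
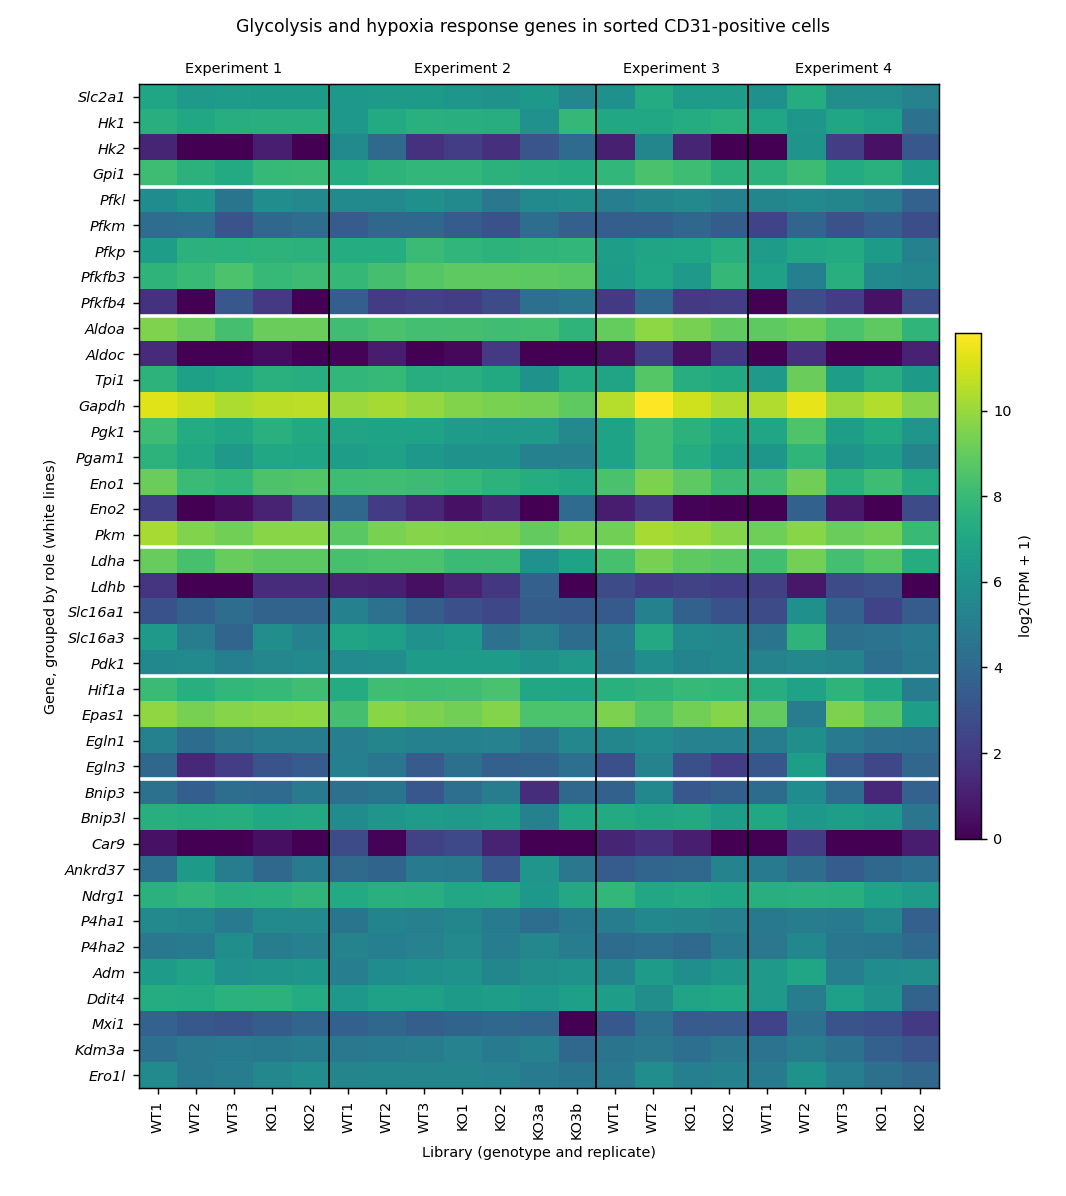
Levels of the 39 members as log2(TPM + 1), colour scale, in the 21 libraries (columns, by experiment, genotype and replicate), with white lines between role groups. Gapdh (470.5 to 3574 TPM) is the brightest row in most columns, and Hk2, Eno2, Ldhb, Car9 and Aldoc are dark in most columns.

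At most steps 1 isoform gene held most of the transcripts. Of the summed TPM of Hk1 and Hk2, the hexokinases that trap glucose, Hk1 took a median of 98.8% in WT and 99.0% in KO. Pfkp, the platelet-type phosphofructokinase, took 69.9% and 75.3% of its step, Pfkl 23.1% and 18.7%, and Pfkm, the muscle type, 6.30% and 6.04%. Aldoa took 99.97% and 99.94% beside Aldoc, and Eno1 took 99.6% and 99.7% beside Eno2. Ldha took 99.6% and 99.3% beside Ldhb, the subunit that favours the return of lactate to pyruvate. Pfkfb3, which makes the activator fructose 2,6-bisphosphate, took 97.99% and 98.7% beside Pfkfb4.

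Among transporters, factors and targets, Slc16a3, the lactate exporter MCT4, took 77.1% in WT and 80.7% in KO of its sum with Slc16a1. Epas1 took 75.3% and 74.3% of its sum with Hif1a. Egln3 took 25.1% and 24.1% beside Egln1. P4ha1 and P4ha2, collagen prolyl hydroxylases, divided their sum near evenly, with P4ha1 at 52.9% and 51.2%. Bnip3l, a mitophagy receptor like Bnip3, took 88.2% and 89.1% of the pair.

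**Figure D2:**
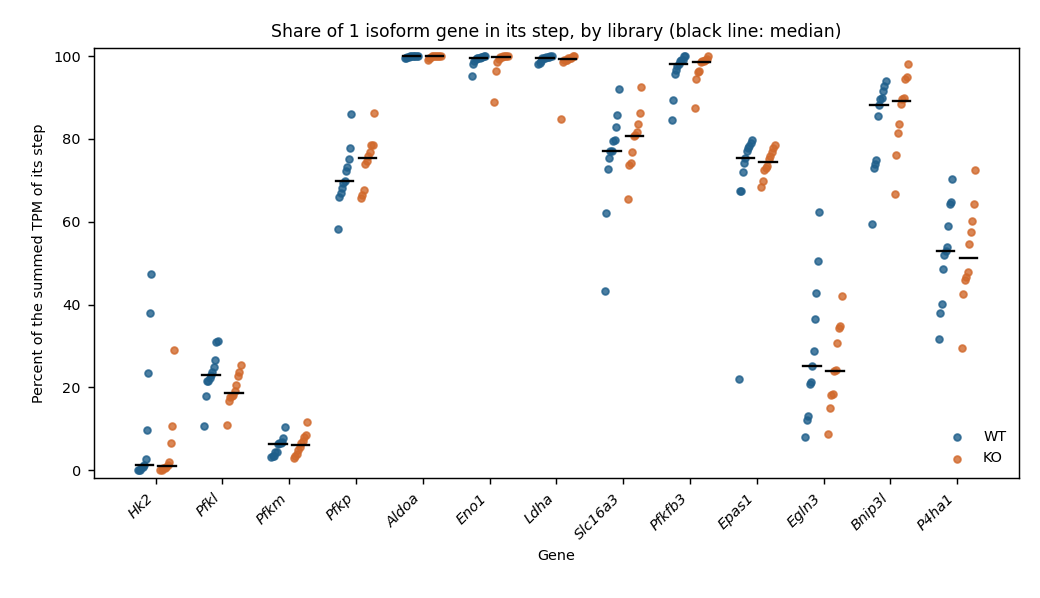
Percent of the summed TPM of its step held by 1 isoform gene in each library, WT in blue (n = 11) and KO in orange (n = 10), with the group median as a black line. Denominators are Hk1 and Hk2, Pfkl, Pfkm and Pfkp, Aldoa and Aldoc, Eno1 and Eno2, Ldha and Ldhb, Slc16a1 and Slc16a3, Pfkfb3 and Pfkfb4, Hif1a and Epas1, Egln1 and Egln3, Bnip3 and Bnip3l, and P4ha1 and P4ha2. Medians of the genotypes lie close together, while Hk2 reaches 47.4% and Epas1 drops to 21.9% in WT replicate 2 of experiment 4.

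A few libraries broke this pattern. In WT replicate 2 of experiment 4 Hk2 held 47.4% of the hexokinase transcripts, Egln3 held 62.4% of its pair and Epas1 only 21.9%. Hk2 stood at 68.2 TPM there, and 2 more WT libraries had high values, replicate 1 of experiment 2 with 47.7 TPM and replicate 2 of experiment 3 with 41.4 TPM. The other 18 libraries ran up to 16.3 TPM, with 5 of them listed at 0. Egln3 stood at 95.9, 33.0 and 37.98 TPM in those 3 libraries, and Slc16a3 at 204, 118 and 137 TPM. Slc16a1 stood at 60.7, 35.2 and 35.0 TPM, and no KO library exceeded 12.7 TPM.

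The same libraries carried transcripts of other cell types. Summed over 10 tumour epithelium markers, led by the keratins Krt8, Krt19 and Krt18, they held 272, 71.1 and 144 TPM, against a median of 4.78 TPM in WT and 3.67 TPM in KO. Most of these sums was Krt8, at 269, 66.3 and 118 TPM, while Krt19 and Krt18 were at 0 in the first of them and at most 4.31 TPM in the others. KO replicate 2 of experiment 4 held 143 TPM, of which Krt8, Krt19 and Krt18 gave 69.4, 27.9 and 23.7 TPM. The WT range was 1.97 to 272 TPM and the KO range 0 to 143 TPM. Krt14 was at 0 in 18 libraries and Krt5 in 19. WT replicate 2 of experiment 3 held 5332 TPM over 11 macrophage and monocyte markers, led by Lyz2, C1qa and C1qb, where the other WT libraries reached down to 60.7 TPM (WT median 246) and KO ran from 32.6 to 224 TPM with a median of 63.5. Pan-leukocyte markers, led by Srgn, Lcp1 and Fcer1g, summed to 249 to 3395 TPM in WT and 135 to 508 TPM in KO, and fibroblast markers, led by Col3a1, Col1a1 and Postn, to 47.0 to 739 TPM and 23.9 to 185 TPM. Their part in the member levels was not tested. In bulk samples fewer cells of a type and less RNA per cell cannot be told apart.

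Sums for pericyte and smooth muscle markers, led by Rgs5, Tagln and Acta2, ran from 39.0 to 225 TPM in WT and from 4.51 to 158 TPM in KO. Erythroid markers, led by Hba-a1, Hba-a2 and Hbb-bs, ran from 4.08 to 310 TPM and from 7.49 to 425 TPM. Endothelial sums ran from 814 to 18976 TPM in WT and from 2386 to 16345 TPM in KO, lowest in WT replicate 2 of experiment 4.

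**Figure D3:**
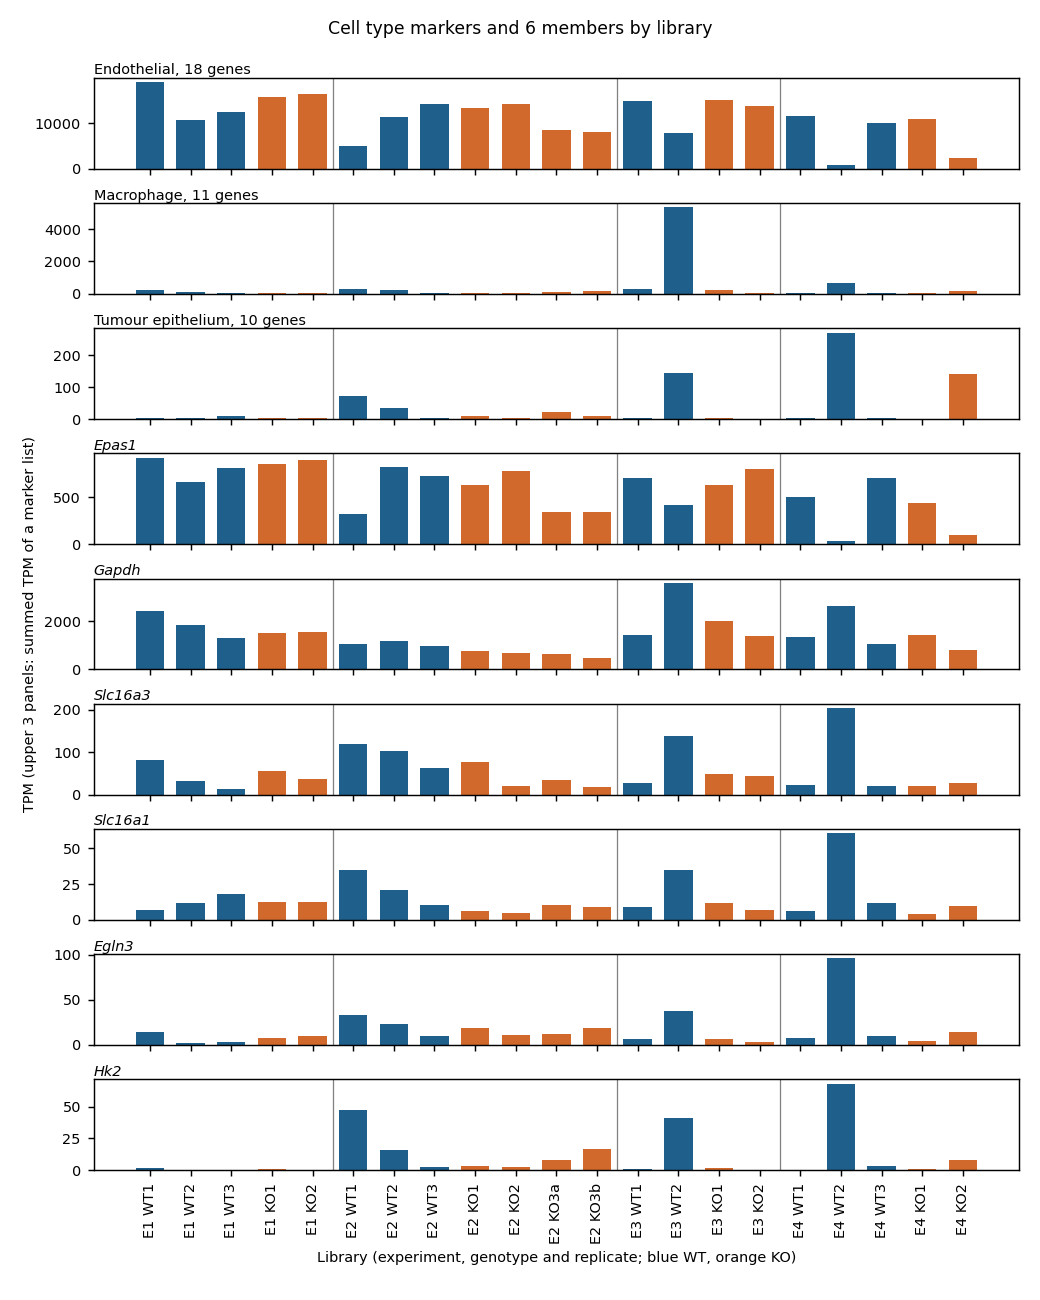
Bars give summed TPM of the endothelial, macrophage and tumour epithelium marker lists and TPM of 6 members in each library (blue WT, orange KO, grey lines between experiments; each panel has its own axis from 0). Hk2, Egln3, Slc16a1 and Slc16a3 are highest in WT replicate 2 of experiment 4, where the endothelial sum (814 TPM) and Epas1 (31.4 TPM) are lowest and the tumour epithelium sum (272 TPM) is highest.

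WT replicate 2 of experiment 4 held the highest value of 11 members and WT replicate 2 of experiment 3 that of 8 others, among them Gapdh at 3574 TPM. KO replicate 2 of experiment 4 held the lowest value of 13 of the 32 members that were above 0 in every library. All 39 members together took 0.489% to 1.06% of the TPM in WT (median 0.623%) and 0.251% to 0.757% in KO (median 0.552%). The lowest share was that of KO replicate 2 of experiment 4 and the highest that of WT replicate 2 of experiment 3.

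The comparison of genotypes asks whether endothelial loss of Shb goes with a different level of these genes. No member passed an adjusted p under 0.05 in limma, of 37 tested, and the lowest adjusted p of a member was 0.820. Over all genes 1 of 13503 passed (0.00741%). At an unadjusted p under 0.05, 4 of 37 members were lower in KO, namely Slc16a1, Ndrg1, Gapdh and Pgam1, and 0 were higher. Over all genes 4.93% were lower and 0.948% were higher at that level. Differences lay below 0 for 31 of 37 members, with a median of -0.30, and for 8641 of 13503 genes, with a median of -0.11. Markers of several other cell types lay below 0 as well, 10 of 10 pan-leukocyte (median -1.36) and 11 of 11 macrophage and monocyte (median -1.48). So did 7 of 7 tested fibroblast (median -1.17) and 7 of 7 tested pericyte markers (median -0.67). Erythroid markers went the other way, with 1 of 3 tested below 0 (median 1.26). Of 10 tumour epithelium markers only 1 was tested, at -1.55. Of the endothelial markers 1 of 18 lay below 0 (median 0.14). The part of other cell types in the members' differences was not tested apart from the leukocyte and fibroblast covariate fit given next. On GRCm38 in the GENCODE annotation, Slc16a1 (ENSMUSG00000032902) lies on chromosome 3 from 104638668 to 104658462 and Ndrg1 (ENSMUSG00000005125) on chromosome 15 from 66929318 to 66969640. Gapdh (ENSMUSG00000057666) lies on chromosome 6 from 125161715 to 125166467 and Pgam1 (ENSMUSG00000011752) on chromosome 19 from 41911923 to 41918660. Car9 and Aldoc did not pass the filter of 1 TPM in at least 10 libraries.

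That balance depended on scaling and on libraries. With all libraries set to a common median, the median of all genes moved from -0.11 to -0.01 and that of the members from -0.30 to -0.19. Then 27 of 37 members and 6853 of 13503 genes lay below 0. At an unadjusted p under 0.05, 1 member was lower, and the counts over all genes became 474 lower and 521 higher instead of 666 and 128. Without the 3 libraries lowest in Pecam1 the member median was -0.10, against -0.03 for all genes. At that level 0 members and 269 of 13049 genes were lower. With WT replicate 2 of experiment 3 left out too, 22 of 36 members lay below 0 (median -0.07), against 7197 of 12882 genes (median -0.04). With leukocyte and fibroblast covariates the order turned, at -0.13 for members and -0.21 for all genes. Without experiment 4 the member median was -0.03, against 0.04 for all genes, and without KO replicate 2 of experiment 4 alone it was -0.15, against 0.02.

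**Figure D4:**
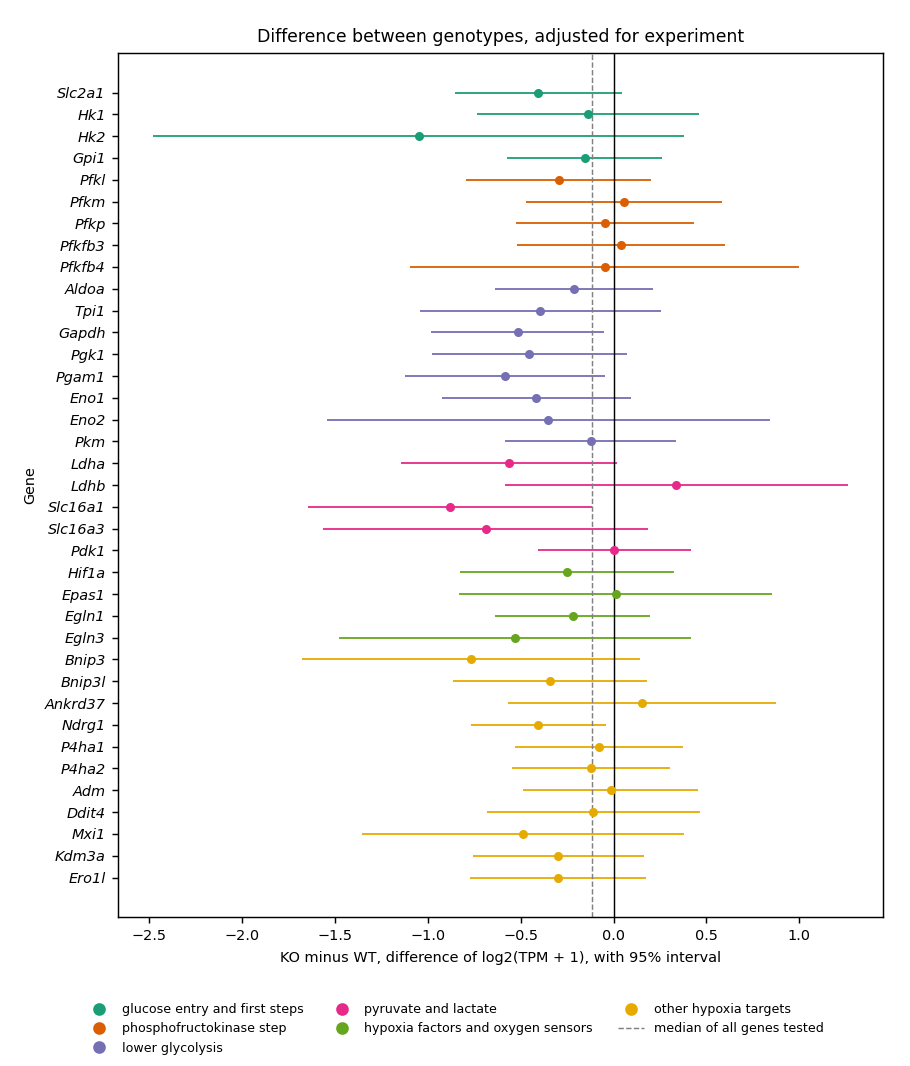
Difference between KO and WT on the log2(TPM + 1) scale for 37 members, adjusted for experiment, with 95% intervals, coloured by role (n = 11 WT and 10 KO libraries). The dashed line is the median of all genes tested (-0.11), and only the intervals of Slc16a1, Ndrg1, Gapdh and Pgam1 lie wholly below 0, with no adjusted p under 0.820.

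Among the 4 genes of glucose entry and the first steps, all 4 differences lay below 0 and 0 passed the test. Slc2a1, the glucose transporter GLUT1, ran from 56.8 to 157 TPM in WT (median 86.1) and from 36.1 to 88.6 TPM in KO (median 74.6). The ranges overlap, with 4 of 11 WT libraries above all KO libraries. Its log2 difference was -0.40 (SE 0.22, p = 0.0756 and adjusted p = 0.820 in limma), below 0 in 4 of 4 experiments. Hk2 ran from 0 to 68.2 TPM in WT (median 2.26) and from 0 to 16.3 TPM in KO (median 1.67). Its difference was -1.05 (SE 0.69, p = 0.142 and adjusted p = 0.842 in limma), below 0 in 3 of 4 experiments. It moved to -0.19 without the 3 libraries lowest in Pecam1 and WT replicate 2 of experiment 3, and to 0.87 when the means of leukocyte and fibroblast markers entered the fit as covariates. Hk1 ran from 75.8 to 182 TPM in WT and from 19.9 to 229 TPM in KO, with a difference of -0.14. Gpi1, glucose-6-phosphate isomerase, ran from 149 to 335 TPM and from 88.0 to 276 TPM, with a difference of -0.16.

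At the phosphofructokinase step, the committed step of glycolysis, 3 of 5 differences lay below 0 and 0 passed the test. With a common median 1 of 5 lay below 0, and Pfkp and Pfkfb4 turned above 0. Pfkfb3 ran from 33.0 to 411 TPM in WT (median 202) and from 41.6 to 471 TPM in KO (median 257). Its difference was 0.04, with a 95% interval from -0.52 to 0.60. Pfkp ran from 90.2 to 263 TPM in WT and from 35.3 to 222 TPM in KO, with a difference of -0.05. The differences of Pfkl, Pfkm and Pfkfb4 were -0.30, 0.06 and -0.05.

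All 8 tested genes of lower glycolysis had differences below 0, with a median of -0.41, and 0 passed the test. They lay below 0 also with a common median or quantile normalization, and 4 of 7 did without the 3 libraries lowest in Pecam1 and WT replicate 2 of experiment 3. Gapdh ran from 470.5 to 2006 TPM in KO, with a median of 1086 TPM against 1331 TPM in WT. All 4 KO libraries of experiment 2, at 470.5 to 766 TPM, lay below its 3 WT libraries, at 971 to 1186 TPM, and the genotypes overlapped in experiments 1, 3 and 4. The difference was -0.52 (SE 0.23, p = 0.0317 and adjusted p = 0.820 in limma), below 0 in 4 of 4 experiments. Gapdh has 92 near-identical copies in the annotation, mostly pseudogenes, which took up to 13.0% of the summed TPM of gene and copies.

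Pgam1, phosphoglycerate mutase, ran from 68.4 to 277 TPM in WT (median 106) and from 34.5 to 156 TPM in KO (median 80.4). In experiment 2 the groups did not overlap, with KO at 34.5 to 66.4 TPM and WT at 78.6 to 106 TPM. Slc2a1, Pgk1, Eno1, Ldha and Ndrg1 separated in the same way there, and Pfkfb3 with KO above WT. The share of all genes that separate so was not counted. The difference of Pgam1 was -0.58 (SE 0.26, p = 0.0344 and adjusted p = 0.820 in limma), at 0.02, -0.95, -0.51 and -0.73 in experiments 1 to 4. Pgk1, phosphoglycerate kinase, ran from 96.2 to 373 TPM in WT (median 122.5) and from 46.8 to 189 TPM in KO (median 111). Its difference was -0.45 (SE 0.25, p = 0.0865 and adjusted p = 0.826 in limma). For Eno1 the KO range was 133 to 466.5 TPM (median 255), overlapping WT, and the difference was -0.42 (SE 0.25, p = 0.104 and adjusted p = 0.834 in limma). Tpi1, triose-phosphate isomerase, reached 554 TPM in WT replicate 2 of experiment 4, and 5 of 11 WT libraries lay above its highest KO value of 178 TPM. Its difference was -0.40. Those of Aldoa, Eno2 and Pkm were -0.21, -0.35 and -0.12.

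Of the 5 genes of pyruvate and lactate handling, 3 had differences below 0 and 0 passed the test. Slc16a1 ran from 5.80 to 60.7 TPM in WT (median 11.9) and from 4.18 to 12.7 TPM in KO (median 9.40). The WT libraries above the KO range were 5 of 11. Its difference was -0.88 (SE 0.37, p = 0.0261 and adjusted p = 0.820 in limma), at 0.14, -1.31, -0.93 and -1.24 in experiments 1 to 4. It moved to -0.42 without the 3 libraries lowest in Pecam1 and WT replicate 2 of experiment 3, and to -0.13 with the marker covariates. Slc16a3 ran from 13.5 to 204 TPM in WT (median 61.4) and from 17.1 to 77.7 TPM in KO (median 35.0). Its difference was -0.69 (SE 0.42, p = 0.118 and adjusted p = 0.836 in limma), and 0.21 with the marker covariates.

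Ldha ran from 62.4 to 470 TPM in KO (median 344), against 304 to 657 TPM in WT. KO replicates 3a and 3b of experiment 2, at 62.4 and 113 TPM, and KO replicate 2 of experiment 4, at 156 TPM, were far below the rest. Its difference was -0.56 (SE 0.28, p = 0.0581 and adjusted p = 0.820 in limma), and -0.28 without replicates 3a and 3b. Pdk1, a kinase that shuts pyruvate out of mitochondria, ran from 24.8 to 87.2 TPM in WT and from 18.6 to 90.2 TPM in KO, with a difference of 0.003 (95% interval -0.41 to 0.42). Ldhb had a difference of 0.34, from a few TPM in either genotype.

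The 4 factor and sensor genes had 3 differences below 0, and 0 passed the test. Hif1a ran from 112 to 288 TPM in WT (median 203) and from 30.7 to 337 TPM in KO (median 231), with a difference of -0.25. Epas1 ran from 96.9 to 894 TPM in KO (median 633), with a difference of 0.01 (95% interval -0.83 to 0.85). The libraries lowest in both factors within their genotype were WT and KO replicate 2 of experiment 4, which also had the lowest endothelial sums, 814 and 2386 TPM. The part of the endothelial share in the factor levels was not tested. Egln1 and Egln3, the oxygen sensors, had differences of -0.22 and -0.53. Egln3 ran from 1.49 to 95.9 TPM in WT (median 9.62) and from 3.43 to 19.2 TPM in KO (median 10.6).

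Of the 11 other hypoxia targets tested, 10 had differences below 0 (8 with a common median) and 0 passed the test. Ndrg1, a stress-induced gene of cell differentiation, ran from 130.5 to 227 TPM in WT (median 172) and from 77.9 to 213 TPM in KO (median 133). Of the KO libraries, 8 of 10 lay below the WT median. Its difference was -0.41 (SE 0.18, p = 0.0310 and adjusted p = 0.820 in limma), at 0.03, -0.49, -0.36 and -0.75 in experiments 1 to 4, and it kept its sign in all alternatives run. Bnip3 ran from 8.27 to 52.6 TPM in WT (median 18.5) and from 1.45 to 30.7 TPM in KO (median 13.2). Its difference was -0.77 (SE 0.44, p = 0.0944 and adjusted p = 0.834 in limma). Near-identical copies took up to 81.1% of the sum of Bnip3 and its copies in 1 library (median 1.77%), so its lowest values are uncertain. Bnip3l ran from 52.3 to 174 TPM in WT (median 126) and from 23.8 to 139 TPM in KO (median 96.5), with a difference of -0.34 (SE 0.25, p = 0.187 and adjusted p = 0.855 in limma).

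None of the remaining targets had an unadjusted p under 0.05. Adm, the vessel-active peptide adrenomedullin, ran from 32.1 to 121 TPM in WT and from 41.1 to 75.0 TPM in KO, with a difference of -0.02. Ddit4, an inhibitor of mTOR signalling, ran from 29.6 to 182 TPM and from 12.7 to 192 TPM, with a difference of -0.11. P4ha1 and P4ha2 had differences of -0.08 and -0.12, and Ankrd37, an ankyrin repeat gene, one of 0.15. Mxi1, a MYC antagonist, Kdm3a, a histone demethylase, and Ero1l, an oxidase of disulfide formation, had differences of -0.49, -0.30 and -0.30. Car9, a carbonic anhydrase often used as a hypoxia marker, ran from 0 to 5.61 TPM in WT and from 0 to 5.01 TPM in KO. Aldoc reached 3.57 TPM in WT and 2.85 TPM in KO.

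More members passed the test between experiments. In the F test for the experiment term, 8 of 37 members passed an adjusted p under 0.05, and 29.1% of all genes did. They were Pfkfb3, Pdk1, Ddit4, Gapdh, Aldoa, Pfkp, Bnip3l and Pgam1. Without experiment 2, 0 members and 4 genes passed. With KO replicate 3b placed in experiment 4, 3 members and 3379 genes passed. Pfkfb3 and Ddit4 then kept their calls, and Pdk1, Gapdh, Aldoa and Pfkp lost theirs.

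Pfkfb3 stood at 202 to 347 TPM in the 5 libraries of experiment 1, 234 to 471 in the 7 of experiment 2, 83.5 to 230.5 in the 4 of experiment 3 and 33.0 to 168 in the 5 of experiment 4. Every library of experiment 2 was above every library of experiment 4 and of experiment 3. KO replicate 3b, at 420 TPM, is counted in experiment 2 here. Placed in experiment 4, it would lie above all other libraries of that experiment. The means were 262 ± 54.2, 398 ± 88.6, 132 ± 68.2 and 79.1 ± 57.2 TPM (SD, n = 5, 7, 4 and 5; adjusted p = 3.7e-04 in limma). Pdk1 was also highest in experiment 2, at 50.3 to 90.2 TPM (80.9 TPM in KO replicate 3b), where the others ran from 18.6 to 53.3 TPM. Its means were 43.7 ± 6.61, 74.0 ± 17.1, 40.2 ± 11.9 and 32.8 ± 10.0 TPM (SD, n = 5, 7, 4 and 5; adjusted p = 0.0131 in limma). For Pfkp the mean was 204 ± 37.3 TPM in experiment 2 against 98.1 ± 44.1 TPM in experiment 4 (SD, n = 7 and 5; adjusted p = 0.0282 in limma).

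Of the 8 tested genes of lower glycolysis 3 passed this test, Gapdh, Aldoa and Pgam1, and all 3 were lowest in experiment 2. Gapdh averaged 824 ± 251 TPM in experiment 2, against 1726 ± 421, 2093 ± 1028 and 1440 ± 699 TPM in experiments 1, 3 and 4 (SD, n = 7, 5, 4 and 5; adjusted p = 0.0191 in limma). Its experiment 2 libraries all lay below those of experiments 1 and 3. Aldoa averaged 293 ± 43.7 TPM in experiment 2 and 416 ± 139 to 639 ± 188 TPM elsewhere (adjusted p = 0.0282 in limma). Pgam1 averaged 69.1 ± 27.9 TPM there and 97.3 ± 65.1 to 162 ± 80.6 TPM elsewhere (adjusted p = 0.0494 in limma). Without KO replicates 3a and 3b the experiment 2 means were 929 ± 206, 310 ± 21.3 and 82.7 ± 18.6 TPM (SD, n = 5) for Gapdh, Aldoa and Pgam1.

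Ddit4 and Bnip3l were highest in experiment 1. Ddit4 stood at 152 to 192 TPM in its 5 libraries, above all 16 others, and averaged 168 ± 18.4 TPM against 57.8 ± 35.9 to 100 ± 33.9 TPM elsewhere (adjusted p = 0.0141 in limma). Bnip3l averaged 153 ± 19.0 TPM in experiment 1, 79.1 ± 30.2 in experiment 2, 127 ± 23.2 in experiment 3 and 80.9 ± 38.4 in experiment 4 (adjusted p = 0.0452 in limma). The calls of Bnip3l and Pgam1 held in 10 and 8 of 32 alternatives, that of Pfkfb3 in 31, those of Pdk1 and Ddit4 in 30 each, that of Gapdh in 29 and those of Aldoa and Pfkp in 24 each.

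**Figure D5:**
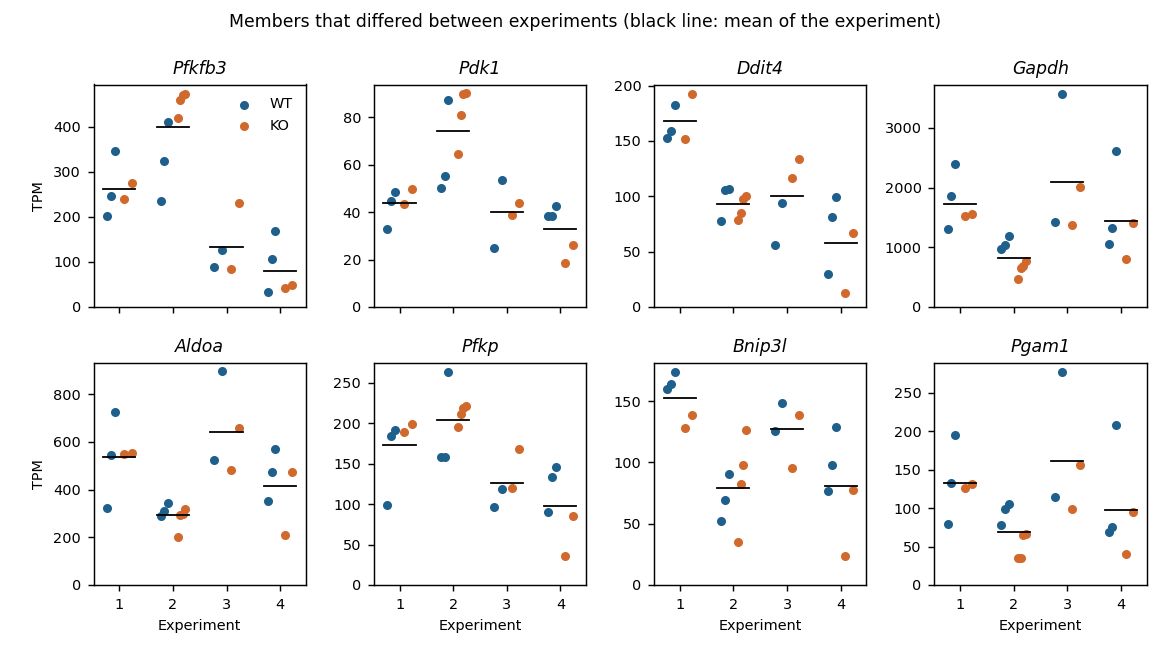
TPM by library (points, blue WT, orange KO) and experiment mean (black line) for the 8 members that passed the test for the experiment term, with each axis from 0. Pfkfb3 and Pdk1 are highest in experiment 2, Gapdh, Aldoa and Pgam1 are lowest there, and Ddit4 is highest in experiment 1.

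The genotype difference was not shown to depend on the experiment. In the interaction test 0 of 13503 genes (0%) and 0 members passed an adjusted p under 0.05, and 0 of 37 members had an unadjusted p under 0.05, against 3.84% of all genes. With KO replicate 1 of experiment 4 left out, 27 genes and 0 members passed the adjusted threshold, and 1985 genes instead of 518 and 5 members had an unadjusted p under 0.05. Member differences lay below 0 for 11 of 37 in experiment 1, 26 in experiment 2, 24 in experiment 3 and 35 in experiment 4, with medians of 0.15, -0.21, -0.16 and -0.75. Slc16a1 had 0.14 and -1.24 in these, Ldha -0.003 and -0.61, and Hif1a 0.27 and -1.27 (interaction p = 0.517, 0.377 and 0.204 in limma).

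Related genes outside the list, taken from functional lists chosen with earlier results of these data known, gave 0 calls at an adjusted p under 0.05. Of 21 tested hypoxia targets outside the members, 7 were lower at an unadjusted p under 0.05, 0 were higher, and 18 lay below 0 (median -0.40). Over all genes 4.93% were lower and 0.948% higher at that level, and 64.0% lay below 0 (median -0.11). The alternatives with libraries left out were not run for these lists. Hilpda, a lipid droplet protein, ran from 19.8 to 66.4 TPM in WT (median 36.1) and from 5.24 to 47.3 TPM in KO (median 18.6), with a difference of -0.93 (adjusted p = 0.820 in limma). Loxl2, a collagen cross-linking enzyme, had -1.55 from low levels (medians 3.01 and 1.05 TPM), and the glucose transporter Slc2a3 had -1.23 (medians 5.13 and 1.67 TPM). Among 12 tested other glycolysis genes 9 lay below 0 and 2 were lower at an unadjusted p under 0.05, Slc2a3 again and the enolase Eno3 at -1.24, with Pgm2, a phosphoglucomutase, at -0.62.

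All 7 pentose phosphate genes lay below 0 (median -0.37), and 0 had an unadjusted p under 0.05. Tkt, Taldo1 and Pgls, enzymes of that pathway, had differences of -0.39, -0.51 and -0.37. Of 11 pyruvate dehydrogenase and pyruvate import genes 9 lay below 0 (median -0.21) and 0 had an unadjusted p under 0.05, with the pyruvate carriers Mpc2 and Mpc1 at -0.59 and -0.26 and the kinase Pdk2 at 0.46. Of 9 tested further factors and regulators of the hypoxia response 5 lay below 0 (median -0.05), with Vhl, which marks HIF for destruction, at 0.67, Tceb1, its partner, at -0.40 and Cited2, a HIF antagonist, at -0.25.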

How the data were processed

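RNA was sequenced from sorted CD31-positive tumour cells, from 30 ng RNA, with a stranded total RNA kit after ribosomal RNA depletion and read as 150-base pairs, as the labels' protocols say. The authors deposited TPM per Ensembl gene, here read as given. Reads were placed on GRCm38 (per the submitters' processing notes). The aligner, counter and strand setting were not given in the sources used here, so reads of genes that overlap on opposite strands (such as Pfkp and Pitrm1) may not be separated. TPM keeps no depth, so no counting interval is given.

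Libraries took genotype and experiment from their column names. A pair of columns share the header of KO replicate 3 of experiment 2, and no column names KO replicate 3 of experiment 4. They are called KO replicates 3a and 3b of experiment 2, hold different values, and their placement was not settled by the labels. Values of 3b carry more decimals than those of 3a (Hk1 at 228.593 and 62.47 TPM). The columns of experiment 4 do so too (Hk1 at 19.8487 TPM in KO replicate 2), and the column of 3b stands directly before them. Of the pair 3b is thus the likelier column of experiment 4, but the main fit kept both in experiment 2.

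The 13503 genes that reached 1 TPM in 10 or more libraries were tested as log2(TPM + 1) in limma 3.58.1 (statmod 1.5.0, R 4.3.3) with a trended, robust variance prior, experiment and genotype as terms, and Benjamini-Hochberg adjustment over all genes at 0.05. Fold changes on this scale understate low genes. F tests covered the experiment term and the interaction. Shb was tested by exact permutation of genotype within experiments (21000 arrangements, two-sided). The fit was tested on simulated data. Gene bounds came from GENCODE for GRCm38, and near-identical copies (at least 95% identity over 300 bases) from BLAST 2.17.0. Promoters are RefSeq's.

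Members and lists were chosen with earlier results of these data known. Full statistics are given for the 12 members with the smallest p, for outside lists up to 3 genes with the smallest p, for cell types the 3 highest by mean, and promoters for the 4 members with most core matches. Alternatives changed pseudocount, filter, scaling, terms, column placement and libraries. One that left out the 3 libraries lowest in Pecam1 and WT replicate 2 of experiment 3 was chosen after seeing the data.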

Additional observations from a re-analysis of the deposited data

Results flagged for a closer look

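In KO replicate 2 of experiment 4, 6 members stood far below the other 9 KO libraries. Gpi1 was at 88.0 TPM (others 157 to 276), Pfkp at 35.3 (84.9 to 222), Pkm at 251 (492 to 1051), Hif1a at 30.7 (126 to 337), Epas1 at 96.9 (347 to 894) and Ddit4 at 12.7 (66.6 to 192). The 20 highest genes took 71.1% of the TPM in this library and Pecam1 stood at 242 TPM, and the part of either in these values was not tested. Car9 stood at 5.01 TPM in KO replicate 1 of experiment 2, against 0 to 1.28 TPM in the others. Mxi1 was listed at 0 in KO replicate 3b of experiment 2, against 2.98 to 14.7 TPM. These values were picked out by their gap to the nearest KO library, and chance picks out about 1 in 20 groups. The 6 values of KO replicate 2 of experiment 4 come from 1 library and are not separate finds. Wide gaps in WT are not listed. Among them were Epas1 in WT replicate 2 of experiment 4 (31.4 TPM, others 318 to 919) and Ankrd37 in WT replicate 2 of experiment 1 (84.2 TPM, others 9.71 to 29.6).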

How the results depend on the processing

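0 members passed an adjusted p under 0.05 between genotypes in any of 38 alternatives, where the lowest adjusted p of a member was 0.575, and 15 of 37 members kept 1 sign throughout. The number of members lower at an unadjusted p under 0.05 (4 as reported) was 1 with a common median, without an experiment term, without KO replicates 3a and 3b, with marker covariates, without experiment 3 and with WT replicate 2 of experiment 3 and the 3 libraries lowest in Pecam1 left out. Over all genes 162 to 474 were lower in those fits (666 of 13503 as reported). The member count was 0 without the 3 libraries lowest in Pecam1 and without experiment 2, 9 without experiment 1, and 1 to 6 with single libraries left out. Over all genes 269 of 13049, 211 of 12026 and 920 of 12741 were lower in the first 3 of these, and 417 to 873 with single libraries left out. Dropping WT replicate 2 of experiment 2, or either replicate 2 of experiment 3, gave 1 member. Dropping WT replicate 1, KO replicate 3a or KO replicate 3b in experiment 2, or either replicate 2 in experiment 4, gave 2 members. With marker covariates Hk2 reversed to 0.87 and Slc16a3 to 0.21, and the cause was not tested. Over all genes 2 passed with a common median or quantile normalization (1 as reported), and 0 without experiment 1 or experiment 2. The genes higher and lower at an unadjusted p under 0.05 (128 and 666) ran from 66 to 666 and from 162 to 1467. With the replicate block 7 members and 685 of 13503 genes were lower at an unadjusted p under 0.05, and 0 genes passed the adjusted threshold. Libraries of 1 number had deviations that correlated at -0.20 to 0.36, with 0.32 and 0.36 in experiment 4. In experiment 3 the groups hold 2 libraries each, so both pairs gave the same value by construction. These correlations cannot settle whether libraries of 1 number share more than the number.

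The 8 members that differed between experiments became 4 with quantile normalization, 3 with KO replicate 3b in experiment 4, 5 without experiment 1, 0 without experiment 2 and 4 to 10 with single libraries left out (4 when WT replicate 3 of experiment 2 was dropped, 5 when it was KO replicate 1 of experiment 3). Over all genes 3931 of 13503 became 2786, 3379, 3767 (of 12741) and 4 (of 12026) in the first 4 of these fits. With single libraries left out they ran from 2335 to 5015. Members with an unadjusted interaction p under 0.05 (0 as reported) numbered 2 with KO replicate 3a in experiment 4 and without 3a and 3b, 1 without the 3 libraries lowest in Pecam1 and WT replicate 2 of experiment 3, and up to 5 with single libraries left out (KO replicate 1 of experiment 4). Over all genes 518 became 239, 732, 207 and 1985 in these fits, in that order. Shb was -0.71 without 3a and 3b, -0.82 without the 3 libraries lowest in Pecam1, -0.57 without experiment 2 and -0.62 without experiment 4, each past the threshold no longer, and -1.08 to -0.79 with single libraries left out. The depth behind TPM is unknown, so low members such as Hk2, Eno2 and Ldhb carry an unknown counting error.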
